A study of Homo sapiens with 12 samples.

Results

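Replication-dependent histone genes encode the H1, H2A, H2B, H3 and H4 proteins that package newly copied DNA, and their transcripts were measured here in the human line Raji, which grew from a Burkitt lymphoma and is of B cell origin. A gene was counted when its symbol was H2AC, H2BC, H3C or H4C followed by a number, or H1-1 to H1-6, with older HIST names included, and when a probe for it was detected on at least 2 of the 12 arrays at a detection p-value under 0.05. Of 70 such genes with a probe, 59 met the detection rule, among 13702 genes tested in all. They were 5 of 6 H1 genes, 14 of 17 H2A genes, 15 of 18 H2B genes, 12 of 14 H3 genes and 13 of 15 H4 genes. The group lies on chromosome 6 (46 genes), chromosome 1 (12 genes) and chromosome 12 (1 gene), per RefSeq. A probe was detected on all 12 arrays for 27 of the 59, and on the fewest arrays, 2, for H1-3 and H4C4. The 11 genes that did not pass were detected on 1 array (H2AC14, H2AC16, H2BC1, H2BC3, H3-4, H4C6 and H4C7) or on none (H1-6, H2AC1, H2BC26 and H3C3).

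The series holds 12 Illumina BeadChip arrays of cells that had received short hairpin RNAs (shRNAs), then 48 h of puromycin, and that were harvested for total RNA on day 3 after transduction, controls included. The hairpins were against MBD2, a reader of methylated DNA (shMBD2_A and shMBD2_C, 2 arrays each), against CREM, a cAMP-responsive transcription factor (shCREM_A and shCREM_B, 1 array each), and against MS4A1, the gene of the surface protein CD20 (shMS4A1_A, shMS4A1_B and shMS4A1_C, 1 array each), with a non-targeting hairpin, shNTC, as the control (3 arrays). By their names the arrays form set 1 (shCREM, shMS4A1 and shNTC replicate 3) and set 2 (shMBD2 with shNTC replicates 1 and 2), and each knockdown was compared with shNTC of its own set. Nothing says that replicates came from separate cultures, so p-values measure only the spread between these arrays, which may be technical. In the shCREM and shMS4A1 groups the arrays are different hairpins, each on 1 array, so their spread also holds differences between hairpins. All groups share 1 estimate of the spread, so this enters every test. All values are from bulk RNA, in which fewer cells of a kind and less RNA per cell cannot be told apart.

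Replication-dependent histone genes are transcribed mainly in S phase, when the cell must wrap its new DNA. Their messages end in a stem-loop bound by the protein SLBP in place of a poly(A) tail, although some of the genes can also make polyadenylated messages, in differentiated cells above all. Most of them sit in clusters in which an H2A and an H2B gene often lie head to head and share the DNA between their starts.

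The promoters of 5 genes that carry the results are shown for the 200 bases before the start given by RefSeq (GRCh38.p14), read 5′ to 3′ on the gene's own strand. H4C2 and H2BC8 had the largest rises under shMBD2, H2BC7 and H3C13 passed in both main comparisons, and H2BC12 had the largest difference between shCREM and shMS4A1. Capitals mark 4 motifs on either strand: TATAAA (the TATA box), CCAAT, the octamer ATTTGCAT, and GGTCCG (part of site II of H4 promoters). Where motifs overlap, the capitals run together.
H4C2, chr6:26027284-26027483, minus strand: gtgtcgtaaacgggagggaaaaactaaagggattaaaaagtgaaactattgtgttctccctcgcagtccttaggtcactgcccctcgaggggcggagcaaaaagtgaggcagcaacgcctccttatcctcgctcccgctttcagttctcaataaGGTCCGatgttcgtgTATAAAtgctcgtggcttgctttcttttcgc
H2BC8, chr6:26216689-26216888, minus strand: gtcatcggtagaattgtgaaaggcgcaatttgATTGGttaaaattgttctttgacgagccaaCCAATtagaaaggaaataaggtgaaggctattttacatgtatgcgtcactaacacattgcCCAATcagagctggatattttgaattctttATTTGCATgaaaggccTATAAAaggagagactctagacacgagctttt
H2BC7, chr6:26199316-26199515, plus strand: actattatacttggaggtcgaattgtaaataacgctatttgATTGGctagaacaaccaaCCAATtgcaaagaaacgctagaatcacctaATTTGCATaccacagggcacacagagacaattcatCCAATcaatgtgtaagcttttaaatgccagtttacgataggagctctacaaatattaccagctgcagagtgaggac
H3C13, chr1:149813694-149813893, minus strand: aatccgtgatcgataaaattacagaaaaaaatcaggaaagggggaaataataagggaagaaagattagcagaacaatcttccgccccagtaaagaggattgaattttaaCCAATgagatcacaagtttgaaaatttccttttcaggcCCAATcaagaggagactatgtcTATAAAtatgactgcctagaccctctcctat
H2BC12, chr6:27146856-27147055, minus strand: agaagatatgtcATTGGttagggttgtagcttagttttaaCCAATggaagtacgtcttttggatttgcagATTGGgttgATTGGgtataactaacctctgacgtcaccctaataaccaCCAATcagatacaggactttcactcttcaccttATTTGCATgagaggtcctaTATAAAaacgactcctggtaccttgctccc
Over the 250 bases before the start, 54 of the 59 genes had a promoter in the RefSeq table, and the same stretch was searched in 27305 promoters of all genes. CCAAT was in 83.3% of the histone promoters (all promoters, 32.7%), namely in all 5 H1, 13 H2A, 15 H2B and 10 H3 promoters and in 2 of 11 H4 promoters. TATAAA was in 68.5% (all promoters, 11.4%). The octamer was in 12 of 15 H2B and 8 of 13 H2A promoters and in none of the H1, H3 and H4 promoters (all promoters, 1.7%), while GGTCCG was in all 11 H4 promoters (all promoters, 9.2%). A match describes letters and does not show a bound site. Of the 11 matched genes that rose under shMBD2 (described next), 36.4% held the octamer, against 37.0% of all 54, and 72.7% held TATAAA.

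MBD2 itself checked the labels of set 2. Its log2 level was 5.78 and 5.50 under shMBD2_A and 5.92 and 5.38 under shMBD2_C, against 7.22 and 7.61 under shNTC, a difference of -1.77 ± 0.24 (SE, limma, adjusted p = 0.00105). MS4A1 was lower on the 3 shMS4A1 arrays (6.17 to 6.19) than on the shNTC array of set 1 (7.35), but with 1 control array the difference of -1.17 ± 0.32 did not pass (limma adjusted p = 0.290). The CREM probe was not detected on either shCREM array and was detected on 4 of 12 arrays in all, with levels of 4.24 to 4.47 under shCREM and 5.10 under shNTC, so it gives little check of that knockdown. Of 9 B cell markers, 7 were among the genes tested and all 7 were detected on all 12 arrays, with CD79A at 11.19 to 12.38. Under shMBD2, CD79A, a part of the B cell receptor, fell by 0.87 on the log2 scale and MS4A1 rose by 0.99, and between shCREM and shMS4A1, CD22 (1.07), EBF1 (0.71) and MS4A1 (2.04), the last the target of the shMS4A1 hairpins, were higher. Markers of other cell types mostly lay near the detection limit. They were those of T and NK cells (5 of 9 measured), of myeloid cells (4 of 8) and of epithelium and fibroblasts (6 of 8). Of these, 0 of 5, 0 of 4 and 0 of 6 passed under shMBD2 and between shCREM and shMS4A1. CD3D was detected on 2 arrays. COL1A1 alone among these markers was detected on all 12 arrays, at 5.01 to 7.07. Before normalization, arrays of set 1 had medians of 99.2 to 104.9 intensity units and those of set 2 had 76.9 to 86.8. The array of shNTC replicate 1 had the fewest probes detected, 18652, against 19614 to 20483 on the others.

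Part of the histone genes had higher transcript levels after knockdown of MBD2. Of the 59 genes, 12 rose under shMBD2 and 0 fell (limma, Benjamini-Hochberg adjusted p under 0.05 over 13702 genes), where 2.86% of all genes were called, 1.55% of them higher and 1.31% lower. The 12 that rose were 6 H3 genes (H3C1, H3C7, H3C8, H3C13, H3C14 and H3C15), 4 H2B genes (H2BC7, H2BC8, H2BC14 and H2BC18), 1 H2A gene (H2AC12) and 1 H4 gene (H4C2). The median difference over the 59 genes was 0.45 on the log2 scale, against 0.04 over all genes, and 46 of the 59 lay above 0. On the authors' processed values, which give smaller differences, it was 0.18, with 10 genes higher and 1, H2AC25, lower. On chromosome 6, 8 of 46 genes rose, and on chromosome 1, 4 of 12. Of the 27 genes detected on all arrays 5 rose, and of the other 32, 7. An unadjusted p under 0.05 was reached by 28 of the 59, against 17.5% of all genes. These calls depend on the arrays used and on the processing. Over 16 alternatives, H3C1 lost its call in 13, H2BC14 in 12, H3C14 in 8 and H3C15 in 7. Without shNTC replicate 1, the array with the fewest probes detected, the median was 0.35. That fit leaves 1 control array, so its calls are not counted here, and the 12 calls rest on both control arrays. Without 1 shMBD2 array, 6 (hairpin A, replicate 2), 5 (hairpin C, replicate 1) or 7 genes (hairpin C, replicate 2) passed. In these fits 0.97%, 0.96% and 0.90% of all genes were called, in the same order, against 2.86% with all arrays.

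H4C2, which encodes a core H4 histone, had the largest rise. Its log2 level was 7.12 and 7.61 under shMBD2_A and 7.97 and 7.78 under shMBD2_C, against 5.01 and 5.59 under shNTC. All 4 knockdown arrays lay above both controls, by a 4.99-fold difference (log2 2.32 ± 0.31, SE, limma adjusted p = 0.00102). On the authors' processed values the log2 difference of H4C2 was 1.20, and without shNTC replicate 1 it was 2.03, just outside the threshold (limma adjusted p = 0.0528). The H4 promoter shown above holds TATAAA close to the start with GGTCCG just upstream of it. No other H4 gene passed, and the 13 H4 genes had a median of 0.17 and a range of -0.26 to 2.32. H4C3, another H4 gene, stood at 13.73 to 13.87 under shMBD2 and 13.91 to 13.98 under shNTC, a difference of -0.12 that did not pass (limma adjusted p = 0.583).

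Among the genes of H2B, the partner of H2A in the nucleosome, H2BC8 showed the largest difference. It was measured at 6.98, 7.18, 6.94 and 6.85 under shMBD2, against 4.76 and 5.32 under shNTC (log2 1.95 ± 0.34, 3.86-fold, limma adjusted p = 0.00647). H2BC7 stood at 6.67 and 6.71 under shMBD2_A and 7.14 and 7.12 under shMBD2_C, against 5.36 and 5.53 under shNTC (log2 1.47 ± 0.26, limma adjusted p = 0.00767). In neither gene did the groups overlap. H2BC14 (log2 1.21, limma adjusted p = 0.0428) and H2BC18 (log2 1.04, limma adjusted p = 0.0153) also passed, and both were detected on 1 of the 2 shNTC arrays. The other 11 H2B genes did not pass, and the class had a median of 0.50 and 11 of 15 values above 0.

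H2AC12, an H2A gene, was measured at 6.50, 6.40, 6.43 and 6.28 under shMBD2, against 4.50 and 4.87 under shNTC, where it was detected on 1 of 2 arrays (log2 1.72 ± 0.26, limma adjusted p = 0.00254). The 4 knockdown arrays lay close together and above both controls. The remaining 13 H2A genes did not pass. H2AC25, the H2A gene of the small chromosome 1 cluster, ran the other way: 6.76, 6.37, 6.29 and 6.63 under shMBD2, against 7.52 and 7.22 under shNTC. Its difference of -0.86 ± 0.23 had a limma adjusted p of 0.0550, just outside the threshold, and it was called lower under 7 of the alternatives tried.

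The H3 genes encode the core histone whose tail carries much of chromatin's methylation and acetylation. Of 12, 6 rose, 11 had values above 0 and 10 had an unadjusted p under 0.05, and their median was 0.97. H3C7 was measured at 7.36, 7.15, 7.18 and 7.24 under shMBD2, against 4.62 and 6.34 under shNTC (log2 1.75 ± 0.36, limma adjusted p = 0.0153). The 2 control arrays were far apart for this gene and it was detected on only 1 of them. With 1 array left out, the difference of H3C7 ran from 0.89 to 2.62, and its call was lost in 6 of 16 alternatives. H3C13 gave 7.26, 7.39, 7.56 and 7.46 under shMBD2, against 5.53 and 5.97 under shNTC (log2 1.67 ± 0.27, limma adjusted p = 0.00415). A second probe of H3C13 gave 1.66 ± 0.30. H3C13, H3C14 and H3C15 are near-identical copies, so their probes may share transcripts and the 3 calls are not independent. H3C8 was measured at 7.07, 7.08, 7.30 and 7.18 under shMBD2, against 5.73 and 5.79 under shNTC (log2 1.39 ± 0.27, limma adjusted p = 0.0113), with little spread in either group. H3C10, at 0.93 and a limma adjusted p of 0.0519, lay just outside the threshold, and H3C1, at 1.00 and 0.0496, just inside it. The H3 gene lowest in the comparison was H3C6, at -0.65, which did not pass (limma adjusted p = 0.241).

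None of the 5 H1 genes, which encode the linker histones that sit on the DNA between nucleosomes, passed. Their differences ran from 0.21 to 0.48, all above 0, with H1-4 at 0.48. H1-3, at 0.31, was detected on 0 shMBD2 and 0 shNTC arrays of set 2, so its value lies near background. H1-4 met the detection rule through the 4 shMBD2 arrays and 1 shMS4A1 array. H1-4 was not detected under shNTC, which puts its mean at least 1.32-fold higher under shMBD2. Its measured means were 5.04 under shMBD2 and 4.56 under shNTC. Such a bound sets the brighter group's mean against the lowest detected level of each array or the gene's own, whichever was higher. It compares means and holds no sampling error, and H1-4 did not pass (log2 0.48 ± 0.21, limma adjusted p = 0.250). H1-2 was measured at 6.64, 7.38, 6.99 and 7.02 under shMBD2, against 6.46 and 7.08 under shNTC, and these groups overlapped (limma adjusted p = 0.667).

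**Figure D1:**
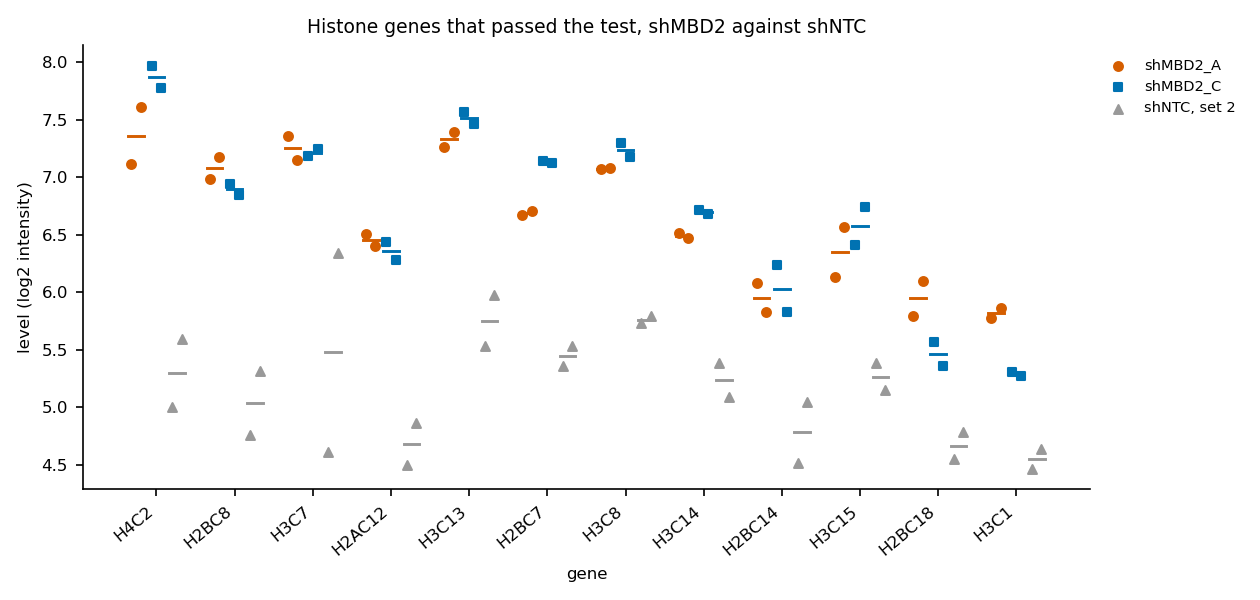
Levels of the 12 histone genes that passed under shMBD2, ordered by size of difference. The vertical axis is the log2 intensity, each point is 1 array, bars are group means (2 arrays each), and for each gene shMBD2_A and shMBD2_C stand left of shNTC. All 4 knockdown arrays lie above both controls for every gene shown, and the controls lie farthest apart for H3C7 (4.62 and 6.34).

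The 2 MBD2 hairpins were also taken singly. Against shNTC, 5 of the 59 genes passed under shMBD2_A and 6 under shMBD2_C, where 1.04% and 0.941% of all genes were called, and the medians were 0.45 and 0.39. These comparisons share both control arrays. Between the hairpins themselves 0 of the 59 passed, where 0% of all genes were called by limma, and 0 of the 59 had an unadjusted p under 0.05. The differences of shMBD2_A minus shMBD2_C ran from -0.51 to 0.54, with H2BC18 at 0.49 ± 0.24, H2AC15 at 0.46 ± 0.25, H3C1 at 0.53 ± 0.30 and H1-5 at 0.54 ± 0.31 as the genes with the smallest p-values.

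The controls of both sets were set side by side. The median level of the 59 genes was 5.67, 5.86, 5.79 and 5.80 on the shMBD2 arrays, against 4.97 and 5.21 under shNTC of set 2, while shNTC of set 1 stood at 5.47. Both shNTC arrays of set 2 lay below that of set 1 for 33 of the 59 genes and above it for 8, against 38.3% and 35.2% of all genes. Between the controls, set 2 minus set 1, 1 of the 59 passed (H3C12, -1.41 ± 0.38, limma adjusted p = 0.0370), where 6.34% of all genes were called, and the median was -0.22. Set 1 has 1 control array, which this test assumes to vary like the other groups. When the set was left out of the model, so that all 3 shNTC arrays served as controls, 1 of the 59 genes passed under shMBD2. That fit called 0.277% of all genes.

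**Figure D2:**
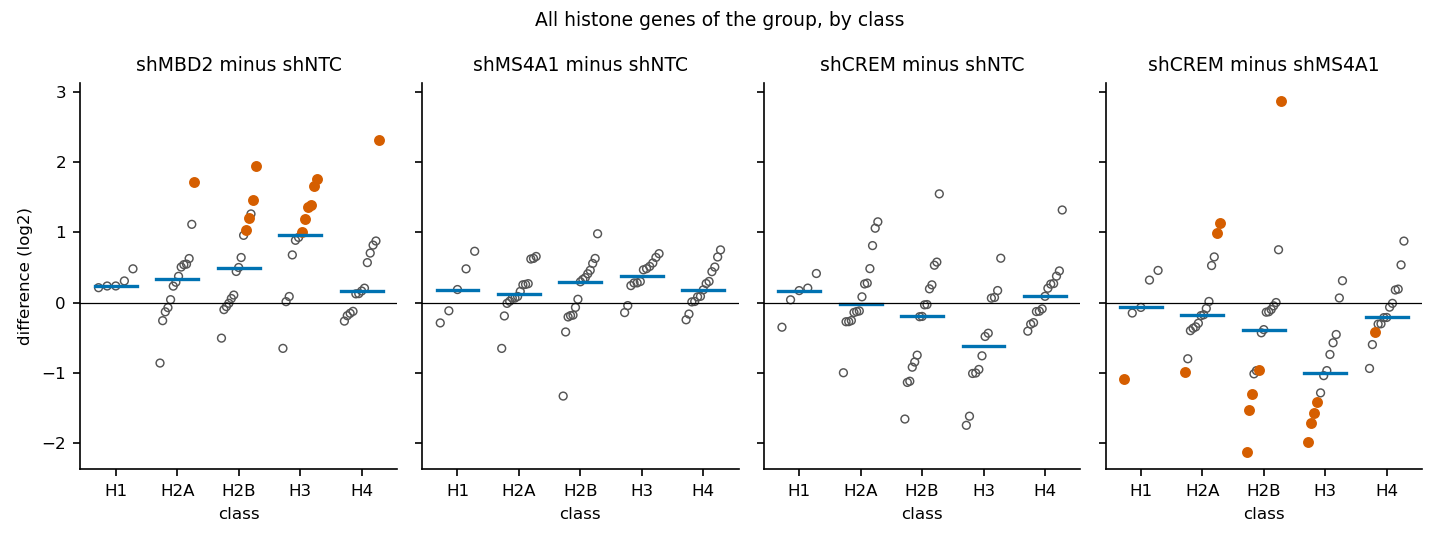
Differences of the 59 histone genes by class (H1, H2A, H2B, H3, H4) in 4 comparisons. The vertical axis is the log2 difference, filled points passed at an adjusted p under 0.05, open points did not, and blue bars are class medians. H3 genes have the highest median under shMBD2 (0.97) and the lowest between shCREM and shMS4A1 (-1.001), and no point is filled where set 1 knockdowns meet their single control.

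Within set 1, histone transcripts differed between shCREM and shMS4A1 in both directions. Of the 59 genes, 11 were lower and 3 higher under shCREM than under shMS4A1 (limma, adjusted p under 0.05), where 6.12% of all genes were called, 3.25% lower and 2.87% higher. The 11 lower genes were 4 H3 genes (H3C8, H3C12, H3C13 and H3C15), 4 H2B genes (H2BC7, H2BC9, H2BC14 and H2BC17), H2AC12, H1-5 and H4C3. The 3 higher genes were H2BC12, H2AC18 and H2AC25. The median over the 59 was -0.29, against -0.0036 over all genes, and 43 lay below 0. By class, values below 0 were seen for 10 of 12 H3 genes (median -1.001), 12 of 15 H2B genes (-0.38), 9 of 14 H2A genes (-0.18), 9 of 13 H4 genes (-0.21) and 3 of 5 H1 genes (-0.07). On the authors' processed values the median was -0.12. The count of 14 was 9 without shMS4A1 replicate 1 (hairpin A), where 3.88% of all genes were called. It was 8 without shMS4A1 replicate 3 (hairpin C), where 2.96% were called. With any 1 array left out, shCREM arrays included, the median ran from -0.39 to -0.18. Over 13 alternatives, H2AC12 and H2BC17 each lost their call in 8, H1-5 and H4C3 in 7 and H2BC14 in 5.

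H2BC7 fell furthest. It was measured at 4.85 and 4.58 under shCREM, where it was detected on 1 of 2 arrays, against 6.93, 6.30 and 7.27 under shMS4A1 (log2 -2.12 ± 0.28, 4.34-fold lower, limma adjusted p = 0.000531). H3C8 gave 4.73 and 5.04 under shCREM, against 7.25, 6.27 and 7.10 under shMS4A1 (log2 -1.99 ± 0.28, limma adjusted p = 0.000972). In both genes hairpin B was the lowest shMS4A1 array and still lay above both shCREM arrays. H3C13 gave 5.08 and 6.08 under shCREM, against 7.42, 6.99 and 7.44 under shMS4A1 (log2 -1.71 ± 0.29, limma adjusted p = 0.00301). Its second probe gave -0.84 ± 0.32, which did not pass (limma adjusted p = 0.168 over probes), so the 2 probes differ in size and in call. H3C12 gave 5.02 and 4.96 under shCREM, against 6.47, 6.37 and 6.86 under shMS4A1 (log2 -1.57 ± 0.28, limma adjusted p = 0.00442), with close agreement inside each group. H2BC9 gave 5.03 and 5.04 under shCREM, against 6.49, 6.84 and 6.36 under shMS4A1 (log2 -1.53 ± 0.27, limma adjusted p = 0.00365).

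The other lower genes had differences of -1.42 to -0.42. H3C15 (-1.42), H2BC14 (-1.31) and H2AC12 (-0.99) were detected on all 3 shMS4A1 arrays and on 1 of 2 shCREM arrays, hairpin B, and H4C3 (-0.42) was detected on all of them. H4C3 fell by the least, with 13.39 and 13.66 under shCREM and 14.02, 13.87 and 13.95 under shMS4A1 (limma adjusted p = 0.0275). H1-5 and H2BC17 were detected on neither shCREM array and on all 3 shMS4A1 arrays. That puts their means at least 2.02-fold and at least 1.75-fold lower under shCREM, bounds that hold no sampling error. H1-5 averaged 4.42 under shCREM and 5.50 under shMS4A1, and H2BC17 averaged 4.34 under shCREM and 5.29 under shMS4A1.

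H2BC12 rose most, and its promoter, shown above, holds the octamer and TATAAA close to each other and to the start. It was measured at 12.24 and 11.35 under shCREM, against 9.25, 8.62 and 8.90 under shMS4A1, a 7.35-fold difference (log2 2.88 ± 0.29, limma adjusted p = 7.5e-05). Its second probe gave 1.84 ± 0.26. The shNTC array of set 1 stood between the groups at 10.25. H2AC25 gave 7.18 and 7.35 under shCREM, against 6.23, 6.22 and 5.93 under shMS4A1 (log2 1.14 ± 0.24, limma adjusted p = 0.0110). H2AC18 gave 8.48 and 8.04 under shCREM, against 7.46, 6.91 and 7.44 under shMS4A1 (log2 0.99 ± 0.23, limma adjusted p = 0.0164). H2AC18 and H2AC19 are near-identical copies, and H2AC19 at 0.65 did not pass (limma adjusted p = 0.0827).

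**Figure D3:**
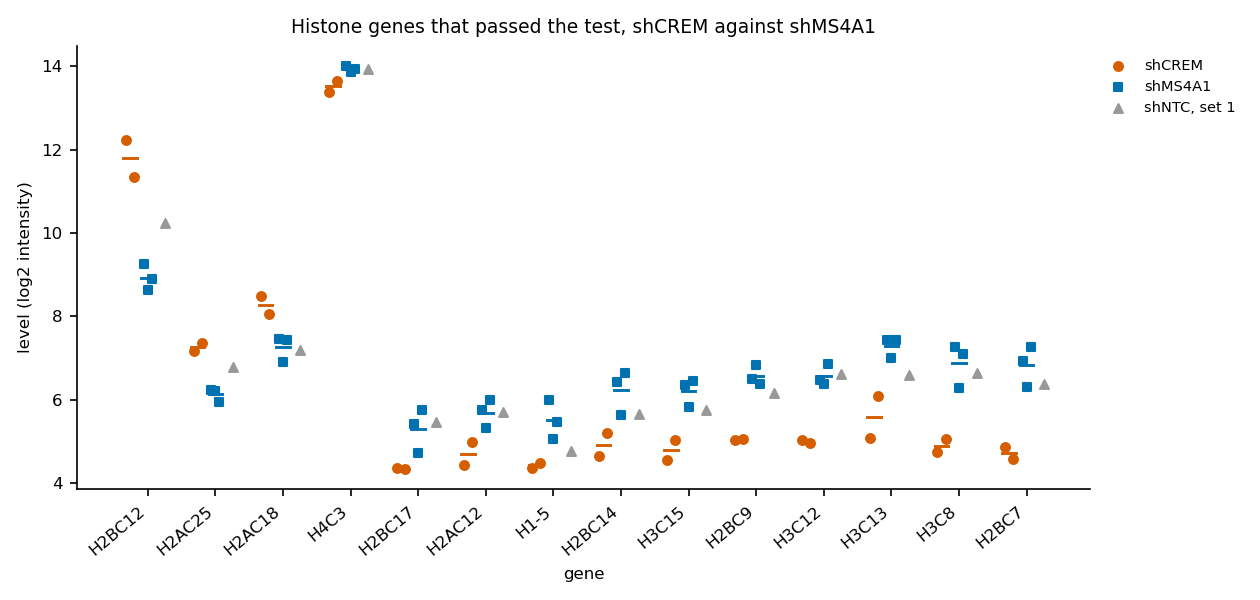
Levels of the 14 histone genes that passed between shCREM and shMS4A1, ordered from highest to lowest difference. The vertical axis is the log2 intensity, each point is 1 array, bars are group means, and the single shNTC array of set 1 is the triangle at the right of each gene. H2BC12 stands at 12.24 and 11.35 under shCREM, above its shMS4A1 arrays (8.62 to 9.25), and H2BC7 stands at 4.85 and 4.58, below its shMS4A1 arrays (6.30 to 7.27).

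Against the 1 shNTC array of set 1, neither knockdown gave a call. Under shCREM 0 of the 59 passed in limma, where 0.0073% of all genes were called, 15 of the 59 had an unadjusted p under 0.05 against 8.32% of all genes, and the median was -0.09. Both shCREM arrays lay below the control for 23 of the 59 and above it for 18, against 34.5% and 31.5% of all genes. The smallest p-values belonged to H3C8 (-1.74 ± 0.38), H2BC7 (-1.65 ± 0.37), H3C12 (-1.61 ± 0.38) and H2BC12 (1.55 ± 0.38), with limma adjusted p-values of 0.171 to 0.223. The 12 H3 genes had a median of -0.62 and the 13 H4 genes one of 0.09. Under shMS4A1 0 of the 59 passed, where 0.197% of all genes were called, 3 of the 59 had an unadjusted p under 0.05 against 6.17% of all genes, and the median was 0.26. Its smallest p-values belonged to H2BC12 (-1.33 ± 0.36), H2AC25 (-0.65 ± 0.30), H3C4 (0.65 ± 0.30) and H1-5 (0.73 ± 0.36), with limma adjusted p-values of 0.293 to 0.844. These comparisons share their only control array, so their values are given side by side and no more.

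Among the shMS4A1 hairpins, B stood apart from A and C. The median difference of the 59 genes from shNTC was 0.37 with hairpin A and 0.36 with hairpin C, against -0.09 with hairpin B. Of the 11 genes lower under shCREM than under shMS4A1, hairpin B was the lowest of the shMS4A1 arrays for 10. These genes were picked by a test on the same shMS4A1 arrays. No such share was taken over all genes, so the count only describes them. On the same arrays 245 short non-coding RNAs without a poly(A) tail had medians of 0.16 (A), -0.022 (B) and 0.18 (C) from shNTC, and 29 genes of the G1/S transition had 0.13 (A), 0.16 (B) and 0.22 (C). The part of RNA quality or priming in the lower histone values of hairpin B was not tested. The shCREM hairpins stood at -0.20 (A) and 0.01 (B) for the 59 genes.

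Of the 12 genes higher under shMBD2 than shNTC and the 11 lower under shCREM than shMS4A1, 6 were the same: H2AC12, H2BC7, H2BC14, H3C8, H3C13 and H3C15. That is 50% of the first list and 54.5% of the second. Of these, H2BC14 lost its call in 12 of 16 alternatives under shMBD2 and in 5 of 13 between shCREM and shMS4A1, and H2AC12 in 2 of 16 and 8 of 13. The first list rests on both shNTC arrays of set 2. The comparisons use no array in common, but all arrays were normalized together and share 1 estimate of the spread. The overlap was not counted over all genes, so whether 50% and 54.5% are particular to histone genes was not tested. H3C13 and H3C15 are near-identical copies and may share transcripts, so they are not independent members of the overlap. H4C2 and H2BC8, the largest rises under shMBD2, had -0.93 and -0.97 between shCREM and shMS4A1 and did not pass there (limma adjusted p = 0.112 and 0.137). H2BC12, the largest rise between shCREM and shMS4A1, had -0.05 under shMBD2 (limma adjusted p = 0.948), with 8.99, 8.90, 8.95 and 9.02 under shMBD2 and 8.46 and 9.57 under shNTC.

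Head-to-head neighbours were compared with each other. Only genes with a promoter in the RefSeq table could be paired, 54 of the 59. H2AC12, called in both main comparisons, was not among them, so any pair that holds it was not counted. RefSeq places 8 pairs of the genes with a promoter head to head. Their starts lie 194 to 248 bases apart, these limits being taken over all 11 such pairs with a probe. Under shMBD2 1 gene of the pair passed in 2 pairs and both genes in 0. H2BC7 rose by 1.47 and its partner H2AC7 stood at 0.04, and H2BC8 rose by 1.95 and its partner H2AC8 stood at 0.51. H2AC7 and H2AC8 were each detected on 3 of 12 arrays, so their values lie near the detection limit. For shCREM against shMS4A1, 1 gene passed in 2 of the counted pairs and both genes in 0. These were H2BC7 at -2.12 with H2AC7 at -0.17, and H2BC17 at -0.95 with H2AC17 at -0.40. Genes that lie in or beside the chromosome 6 cluster but encode no histone, such as HFE and the butyrophilin genes, gave 0 of 13 called under shMBD2 with a median of 0.12, and 1 of 13, BTN2A2 at 0.98, between shCREM and shMS4A1.

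The 6 genes listed as able to make polyadenylated messages (H1-2, H2AC6, H2BC4, H2BC5, H2BC12 and H2BC21) were taken apart from the rest. Under shMBD2 0 of 6 passed, with a median of 0.44, where the other 53 had 12 rises and a median of 0.45. H2AC6 was measured at 6.19, 6.48, 5.99 and 6.54 under shMBD2, against 4.79 and 5.57 under shNTC (1.12, limma adjusted p = 0.101), and H2BC4 differed by 0.64 (limma adjusted p = 0.207). H2BC5 depended on its probe. The probe with the higher mean gave 0.96 ± 0.27 under shMBD2 (limma adjusted p = 0.0672), and another, detected on all 12 arrays as well, gave -1.31 ± 0.27 (limma adjusted p = 0.0154 over probes). Between shCREM and shMS4A1 the same probes gave -0.38 ± 0.28 and 2.51 ± 0.28 (the latter with limma adjusted p = 8.27e-05 over probes), so no direction is given for H2BC5. With the probe of highest mean for each of the 6 genes, H2BC12 alone passed between shCREM and shMS4A1. H2BC21 stood at -0.10 under shMBD2 and 0.0033 between shCREM and shMS4A1. Under shCREM against shNTC the values were 1.55 for H2BC12, 1.15 for H2AC6, 0.53 for H2BC4, 0.21 for H1-2 and -0.20 for H2BC21, and none passed in limma. Under shMS4A1 against shNTC they were -1.33, 0.62, 0.63, -0.11 and -0.20 in the same order of genes, and none passed.

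Genes that make, process and use histone messages were counted next, where 2.86% of all genes were called under shMBD2 and 6.12% between shCREM and shMS4A1, so that a single call in a list of this size lies near the background. Of 18 factors of histone transcription and 3′ end processing, among them SLBP, NPAT and the U7 proteins LSM10 and LSM11, 0 passed under shMBD2 (median 0.06) and 1 was lower between shCREM and shMS4A1, CPSF2, a cleavage factor, at -1.02. SLBP was measured at 10.08, 10.24, 10.29 and 10.22 under shMBD2 and 9.71 and 9.87 under shNTC. Of 11 histone genes listed as replication-independent, H3-3B rose under shMBD2 (0.99) and H2AX was lower between shCREM and shMS4A1 (-1.04). Of 22 histone chaperones, which carry histones to DNA, RBBP4 rose under shMBD2 (0.67). Another 5 chaperones were lower between shCREM and shMS4A1, namely CHAF1A, ASF1B, HAT1, NAP1L4 and HJURP, at -0.57 to -1.03.

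Cell cycle genes were counted in both main comparisons, where 1.55% of all genes rose under shMBD2 and 3.25% were lower between shCREM and shMS4A1. A single call in 30 genes lies near the first share. Of 29 genes of the G1/S transition and DNA replication, 3 rose under shMBD2 (MCM5 at 0.71, CDT1 at 0.81 and FEN1 at 1.00), with a median of 0.40, and of 30 genes of G2 and mitosis 1 rose (BUB1B at 0.75), with a median of 0.14. The median difference of the G1/S genes from their own controls was 0.30 to 0.42 on the shMBD2 arrays, while the controls stood at -0.28 (replicate 1) and 0.28 (replicate 2). Between shCREM and shMS4A1, 14 of the 29 G1/S genes were lower, with a median of -0.78 and RRM2, a subunit of the enzyme that makes deoxyribonucleotides, at -1.98, and 17 of the 30 G2/M genes were lower, with a median of -0.83 and CCNA2, cyclin A, at -1.60. On the shCREM arrays the G1/S median lay -0.82 (A) and -0.41 (B) from shNTC, and the H3 median -1.03 (A) and -0.36 (B). The other classes lay nearer 0, with H1 at -0.11 (A) and 0.26 (B) and H2A at -0.05 and 0.16. H2B stood at -0.22 and -0.20 and H4 at 0.16 and 0.03, and all 59 genes at -0.20 and 0.01. The part of the cell cycle in the histone differences was not tested.

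Short non-coding RNAs without a poly(A) tail, such as snRNAs, snoRNAs and Y RNAs, were measured beside them. Of 245, 26 rose and 1 fell under shMBD2, where 1.55% of all genes rose and 1.31% fell, with a median of 0.29, and RNU6ATAC, a minor spliceosome RNA, had 2.48. Their median difference from shNTC was 0.23 to 0.42 on the 4 shMBD2 arrays. Set 1 had 6 higher and 6 lower between shCREM and shMS4A1, where 2.87% of all genes were higher and 3.25% lower. Both counts lie near those shares, and the median of the 245 was -0.09. In shNTC of set 2 against shNTC of set 1, 28 were lower and 1 higher, where 6.34% of all genes were called in either direction. The labels give total RNA and a standard Illumina protocol and do not state how cDNA synthesis was primed, and the part of priming or RNA quality in the histone values was not tested.

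**Figure D4:**
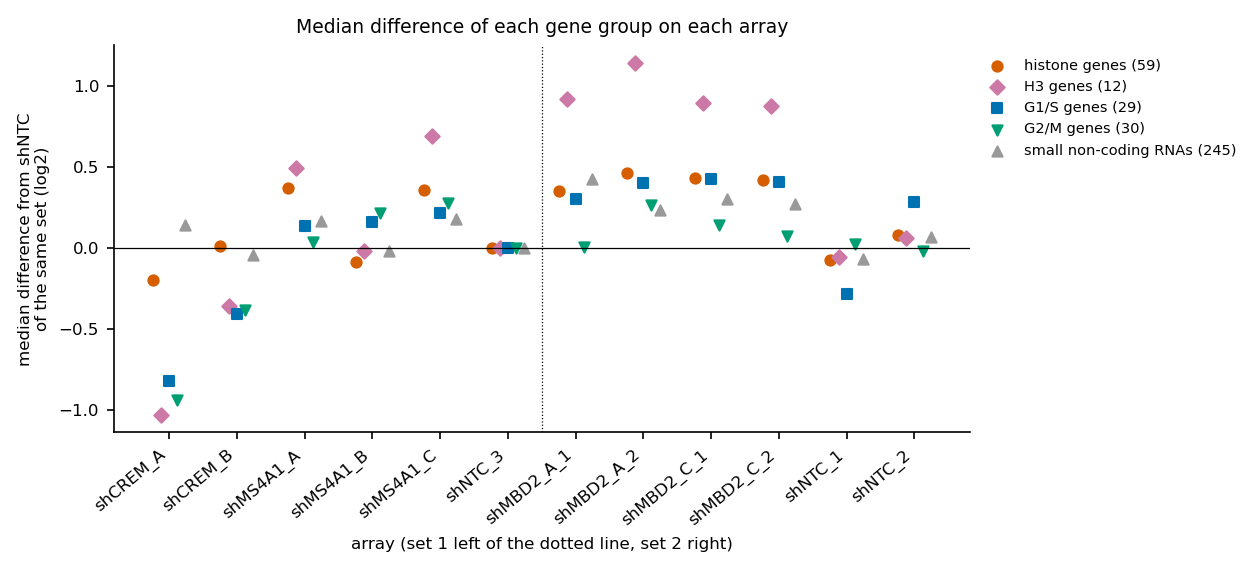
Median log2 difference of each gene group from shNTC of the same set on each of the 12 arrays (for shNTC of set 2, from the mean of both). Each point is the median over the genes counted in the legend, and the dotted line separates the sets. H3 genes lie at 0.87 to 1.14 on the 4 shMBD2 arrays and at -1.03 and -0.36 on the shCREM arrays, and the G1/S genes lie on the same side of 0 on these 6 arrays. All 59 histone genes together lie at -0.20 and 0.01 on the shCREM arrays.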

How the data were processed

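Of 12 Illumina BeadChip arrays, the authors deposited raw probe intensities on a linear scale and, per the file headers, a detection p-value for every probe and array, and also processed intensities that they had normalized between arrays. Image software and normalization method are not given in the sources used here. Because the raw and processed tables use different identifiers, 48105 of 48107 probes were joined by their values, each as a mutual nearest match. Gene symbols came from the platform annotation, updated through RefSeq. In R 4.3.3, limma 3.58.1 applied neqc to the raw intensities, which corrects background and equalizes quantiles, here with an offset of 16 and background taken from the detection p-values. Probes detected on fewer than 2 arrays were left out, and the probe with the highest mean stood for its gene, which gave 13702 genes. limma's moderated test with an intensity trend was fitted to all 12 arrays with the set as a block, two-sided, with Benjamini-Hochberg adjustment over all genes. Errors after ± are standard errors of that fit. The number of arrays limits the precision.

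Replicate numbers do not pair the arrays: deviations of same-numbered arrays of set 2 correlated at -0.09, -0.01 and -0.03. The highest correlation between 2 arrays was 0.992. Genes were named by a rule: all genes that passed, or those with the smallest p-values where fewer than 4 passed, with 1 gene of each class and the 6 genes with polyadenylated messages. The members and lists were chosen with earlier results of these data known. Alternatives were the authors' processed values, no background correction, an offset of 50, other detection filters, the mean over probes, no intensity trend, no set block, own set only, a replicate block, and each array left out.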

Additional observations from a re-analysis of the deposited data

How the results depend on the processing

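Over the alternatives, 890 of 907 values of named genes kept their direction. The median under shMBD2 was 0.18 with the authors' processed values. With no set block, 1 gene passed under shMBD2, 2 under shMS4A1 and 2 under shCREM against shNTC. In the same order, 0.277%, 1.72% and 1.75% of all genes were called. Between shCREM and shMS4A1, 9 genes passed with no detection filter and 9 with own set only, each by construction a change in the genes or arrays fitted. These fits called 2.77% and 2.55% of all genes, against 6.12% in the main fit. Leaving out 1 array gave 0 to 12 genes under shMBD2, 8 to 15 between shCREM and shMS4A1, 0 to 2 under shCREM against shNTC and 0 under shMS4A1 against shNTC. Under shMBD2 and between shCREM and shMS4A1, the share of all genes called was also smaller in the fits with the lowest counts. The cause of these shifts was not tested. The replicate block, which pairs the numbers of set 2, gave 10 genes under shMBD2, all higher, losing H2BC14 and H3C1, and 0 between the MBD2 hairpins. Set 1 shares no numbers with its control. H2AC25 was called lower under shMBD2 with the authors' values, no background correction, an offset of 50, detection on 6 or more arrays, the mean over probes, no intensity trend, and without shNTC replicate 2. With the mean over probes, H2BC5 turned to -0.17 under shMBD2, -0.41 under shMS4A1, 0.65 under shCREM and 1.06 between shCREM and shMS4A1. With no set block, H2BC5 was 0.19 under shCREM and H1-2 was 0.31 under shMS4A1, and with the authors' values H4C3 was -0.0203 under shMS4A1. Signs also turned when 1 array was left out. Under shMBD2 the ranges were -0.0687 to 0.55 for H1-2, -0.34 to 0.20 for H2AC19, -0.61 to 0.50 for H2BC12 and -0.30 to 0.10 for H2BC21. Between shCREM and shMS4A1 they were -0.30 to 0.10 for H2BC4 and -0.0771 to 0.0730 for H2BC21, under shCREM -0.20 to 0.15 for H2BC5, and under shMS4A1 -0.0179 to 0.0558 for H4C3. Of all these turned values, H2BC5 between shCREM and shMS4A1 with the mean over probes was the 1 called (limma adjusted p = 0.0182). Members detected on few arrays lie near background, where differences are compressed.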
